A study of Mus musculus with 6 samples.

Results

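The TNF superfamily genes Tnf, Tnfsf10, Tnfsf13b, Tnfsf9 and Tnfsf12 (ligands) and Tnfrsf1a, Tnfrsf1b, Tnfrsf11a and Ltbr (receptors) were described in microglia sorted from mouse optic nerve. They were chosen by name, and 8 of the 9 were found among the 37447 genes of the deposited table. Tnfsf12 has no row under that name and was not analysed by itself. A row of a Tnfsf12-Tnfsf13 readthrough gene is described further below. All mice were C57BL/6 and 3 months old. In the FMC group (4 libraries, FMC 1 and FMC 4 female, FMC 2 and FMC 3 male) they were Nf1 flox/mut with GFAP-Cre, that is, 1 floxed and 1 mutant Nf1 allele and a Cre recombinase driven by the promoter of the astroglial gene Gfap. In the FM group (2 libraries, FM 1 male and FM 2 female) they were Nf1 flox/mut without Cre, so both groups carry the mutant allele in every cell and differ in the Cre. The transgene's promoter is that of astroglia, not of microglia. The labels call the libraries biological replicates and do not say how many mice each came from, so p-values measure the spread between these libraries.

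Ligands of the TNF superfamily are mostly trimeric membrane proteins that can be shed, and their receptors signal through TRAF adaptors to NF-kappaB and MAP kinases or, where they carry a death domain, to cell death. Microglia, the resident macrophages of nervous tissue, are a known source of TNF and carry both TNF receptors. Setting FMC against FM asks how these genes differ in microglia of mice that form optic glioma.

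The level is given in FPKM, a value scaled to transcript length and library size, so that levels can be compared between genes per length. Each library listed between 13390 and 15562 genes at 1 FPKM or more. Fragment totals were not analysed here. The lowest FPKM values move in steps, and from these the depth of the other libraries relative to FMC 2 was estimated at 1.17 (FM 1) to 2.16 (FMC 4), with peaks at both 3.36 and 1.68 for FM 2. The sorted cells held the microglial markers: all 10 of the list were at 70.3 FPKM or more in every library, and their summed level was 3405 to 5857 FPKM in FMC and 3313 to 6837 FPKM in FM. In these pooled cells, fewer cells of a type and less RNA per cell cannot be told apart.

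Differences were tested with limma on log2(FPKM + 1) over the 18208 genes that reached 1 FPKM in at least 2 libraries, and all 8 genes passed this filter. None of the 8 passed an adjusted p of 0.05 (limma, Benjamini-Hochberg), nor did any have an unadjusted p under 0.05 in this fit. Over all genes tested 5 were called (0.0275%; 0 of them higher), a count that was 0 without FMC 2, FMC 3, FM 1 or FM 2 and 8 (4 higher and 4 lower) without FMC 4, and 973 had an unadjusted p under 0.05. Of the 8 differences 6 were positive and 2 negative, with a median of 0.21, against a median of -0.12 over all genes tested. Of all genes tested 43.5% had a positive difference. Tnfsf10 was the single gene of the 8 whose FMC libraries all lay above both FM libraries, and no gene had them all below. Over all genes tested these shares were 4.34% and 8.22%. In absolute size the median difference of the 8 was 0.40, against 0.53 over all genes tested (log2).

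The promoter sequence of 3 of the ligands is shown because the results below turn on them: Tnfsf10, whose groups did not overlap, Tnfsf13b, which had the next largest difference, and Tnf, of which 1 FMC library stood far from the other 3. Each is the 250 bases before a transcription start, 5′ to 3′ on the gene's strand, from RefSeq annotation on GRCm38.p6. They lie at chr3:27316827-27317076 (plus strand), chr8:10006383-10006632 (plus strand, the second of 2 listed starts) and chr17:35202008-35202257 (minus strand). Capitals mark matches to the motifs searched.
Tnfsf10: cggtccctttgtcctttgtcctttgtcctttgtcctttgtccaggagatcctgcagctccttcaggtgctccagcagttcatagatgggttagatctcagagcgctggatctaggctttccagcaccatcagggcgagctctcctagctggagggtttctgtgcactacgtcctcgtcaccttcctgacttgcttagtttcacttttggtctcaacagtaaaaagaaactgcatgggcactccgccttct
Tnfsf13b: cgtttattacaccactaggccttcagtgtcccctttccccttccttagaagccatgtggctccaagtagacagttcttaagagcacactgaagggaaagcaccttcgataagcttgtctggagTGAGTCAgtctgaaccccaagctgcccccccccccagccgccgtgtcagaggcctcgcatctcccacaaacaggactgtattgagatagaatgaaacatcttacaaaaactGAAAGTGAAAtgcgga
Tnf: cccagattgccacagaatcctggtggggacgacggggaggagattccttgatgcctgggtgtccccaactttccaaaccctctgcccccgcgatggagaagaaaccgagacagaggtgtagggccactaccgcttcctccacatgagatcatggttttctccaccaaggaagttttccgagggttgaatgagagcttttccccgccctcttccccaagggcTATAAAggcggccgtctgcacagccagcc

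Of the 9 genes 7 had a promoter entry, giving 8 windows of 250 bases; Tnfsf9 and Tnfsf12 had none. Both strands were searched for 5 motifs. No match overlapped another in the 8 windows, of which the pair of Tnfsf13b windows overlap each other. The interferon response motif GAAANNGAAA was found in 2 of the 8 windows (Tnfrsf1b and Tnfsf13b) and in 2.98% of the 32851 promoter windows of the table. The STAT motif TTCNNNGAA was found in 2 (Tnfrsf1a and Tnfrsf1b; 7.02% of all windows) and the AP-1 motif TGANTCA in 1 (Tnfsf13b; 6.75%). The TATA box TATAAA was found in 1, in Tnf from 29 bases before its start (12.4% of all windows), and the NF-kappaB consensus in 0 (3.90%). A missing match says only that these letters are not in the window.

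Among the 4 ligands described in full, Tnfsf10 had the largest difference. It encodes TRAIL, a death-receptor ligand known as an interferon-induced gene of macrophages (ENSMUSG00000039304, mm9 chromosome 3 from 27215949 to 27241349). Tnfsf10 was at 7.56, 6.10, 11.5 and 7.19 FPKM in FMC 1 to FMC 4, against 1.37 and 2.80 FPKM in FM 1 and FM 2. Every FMC library was above both FM libraries, and FMC 3 was the highest. The means were 8.07 ± 2.34 FPKM in FMC (SD, n = 4) and 2.09 ± 1.01 FPKM in FM (SD, n = 2). FMC minus FM was 1.56 ± 0.69 (SE) in log2(FPKM + 1), with a 95% interval of -0.01 to 3.13 on that log2 scale. As a fold the difference is 2.95, which understates the change of low genes. It did not pass over all genes (limma, adjusted p = 0.939). An exact two-sided permutation test gave p = 0.0667, the smallest that the 15 splits into 4 and 2 libraries allow. In the libraries whose titles carry dates 1 day apart, Tnfsf10 was 1.58 higher in FMC 2 than in FM 1, and FMC 3 exceeded FM 2 by 1.71 (log2). What the dates stand for is not labelled, and FMC 3 is male and FM 2 female.

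The summed levels of 3 marker lists of other cells also did not overlap between the groups. Oligodendrocyte lineage markers were higher in FMC, as Tnfsf10 was, while erythroid and border-associated macrophage markers were lower. Erythroid markers summed to 6.61 to 25.3 FPKM in FMC and 102 to 136 FPKM in FM, with 4 of 4 markers below in all FMC libraries. Over all genes tested 8.22% lay below in this way. Border-associated macrophage markers summed to 153 to 189 FPKM in FMC and 283 to 347 FPKM in FM, with 2 of 4 (Mrc1 and Pf4) below. Oligodendrocyte lineage markers summed to 13.3 to 21.5 FPKM in FMC and 7.81 to 8.89 FPKM in FM, with 0 of 6 single markers free of overlap. Of all genes tested 4.34% lay above in all FMC libraries. None of the markers of these lists was listed at 0 in any library, and their part in the Tnfsf10 difference was not tested.

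Tnfsf13b, which encodes BAFF, the survival factor of B cells made by myeloid cells, had the highest mean of the 17 ligands of the superfamily in the table. It is ENSMUSG00000031497 on mm9 chromosome 8, from 10006842 to 10035441. Tnfsf13b was at 15.9, 17.0, 48.9 and 46.4 FPKM in FMC 1 to FMC 4, against 10.9 and 20.3 FPKM in FM 1 and FM 2. FMC 3 and FMC 4 lay above the FM range, while FMC 1 and FMC 2 lay within it. The difference was 0.87 ± 0.65 (SE; 95% interval -0.59 to 2.34; limma, adjusted p = 0.993; exact permutation p = 0.267). It was 0.45 without FM 1, and 0.13 with a replicate block over FMC 1, FMC 2, FM 1 and FM 2 (log2). Of the BAFF receptors, which are genes of B lineage cells, Tnfrsf13b (TACI) averaged 10.8 ± 4.6 FPKM in FMC (SD, n = 4) and 7.98 ± 5.67 FPKM in FM (SD, n = 2). Tnfrsf13c (BAFF receptor) was at 9.44 FPKM in FMC 1 and 0.821 to 1.70 FPKM in the other 5 libraries. Tnfrsf17 (BCMA) was at 30.1, 0, 0.413 and 2.98 FPKM in FMC 1 to FMC 4 and at 1.57 and 18.6 FPKM in FM 1 and FM 2. B cell markers had their highest summed levels in the same pair of libraries as Tnfrsf17, at 111 FPKM in FMC 1 and 106 FPKM in FM 2, against 14.1 to 36.8 FPKM in the others. Tnfrsf13b was instead highest in FMC 4. Of the FM 2 sum 98.4 FPKM was Cd79b alone. Their part in these levels was not tested.

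Tnf, the founding ligand and a central inflammatory cytokine, is ENSMUSG00000024401 on mm9 chromosome 17, from 35336325 to 35338952. Tnf was at 16.9, 2.27, 16.5 and 17.1 FPKM in FMC 1 to FMC 4, against 8.54 and 8.25 FPKM in FM 1 and FM 2. FMC 1, FMC 3 and FMC 4 lay within 1 FPKM of each other and above both FM libraries, and FMC 2 lay below both. The means were 13.2 ± 7.3 FPKM in FMC (SD, n = 4) and 8.39 ± 0.21 FPKM in FM (SD, n = 2). The difference was 0.31 ± 0.82 (SE; 95% interval -1.55 to 2.18; limma, adjusted p = 0.999; exact permutation p = 1). Without FMC 2 it was 0.92, with an adjusted p that again missed the threshold. In libraries with dates 1 day apart the Tnf difference was -1.55 for FMC 2 minus FM 1 and 0.92 for FMC 3 minus FM 2 (log2), so the sign differed between the 2 pairs, and with these dates as a block the fitted difference was -0.31. Its neighbours Lta and Ltb, which encode the lymphotoxins and lie 1156 and 3059 bases from it in the table's coordinates, were mostly lower in level. Lta was at 0.396 FPKM or less in every library, and Ltb was at 1.09, 0.0888, 0 and 0.277 FPKM in FMC 1 to FMC 4 and at 0.920 and 11.0 FPKM in FM 1 and FM 2.

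Tnfsf9, which encodes 4-1BB ligand, a costimulatory ligand for T cells, had the lowest level of the 8 genes (ENSMUSG00000035678, mm9 chromosome 17 from 57244807 to 57247180). Tnfsf9 was at 0.384, 1.10, 0.781 and 5.90 FPKM in FMC 1 to FMC 4, against 5.13 and 0.522 FPKM in FM 1 and FM 2. In each group 1 library stood at 5 FPKM or more (FMC 4 and FM 1) and the rest at 1.10 FPKM or less. The difference was -0.32 ± 0.92 (SE; 95% interval -2.39 to 1.75; limma, adjusted p = 0.999; exact permutation p = 0.933), and it was 0.68 without FM 1 and -1.33 without FM 2. The locus overlaps the predicted gene Gm11110, which was highest in FM 1 at 2.37 FPKM and at 0.996 FPKM or less in the others, and reads of this pair cannot be told apart. Its receptor gene Tnfrsf9 was at 4.81 FPKM in FMC 4, the library with the highest Tnfsf9, and at 0.0464 FPKM or less in the other 5 libraries.

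For Tnfsf12 (TWEAK) the nearest measurement is the row BC096441, ENSMUSG00000018752, which the reference names Tnfsfm13 and RefSeq gives as a Tnfsf12-Tnfsf13 readthrough gene. It was at 4.31, 11.7, 10.4 and 14.3 FPKM in FMC 1 to FMC 4, against 9.70 and 25.5 FPKM in FM 1 and FM 2 (log2 difference -0.69 ± 0.68 SE; limma, adjusted p = 0.994). The row spans 69496078 to 69509600 on mm9 chromosome 11 and overlaps Tnfsf13 (APRIL), which a further row, 2010012P19Rik, also overlaps, so the share of it that is Tnfsf12 cannot be told apart. Tnfsf13 was at 1.08, 10.3, 0.0920 and 2.42 FPKM in FMC 1 to FMC 4 and at 4.40 and 9.95 FPKM in FM 1 and FM 2.

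**Figure D1:**
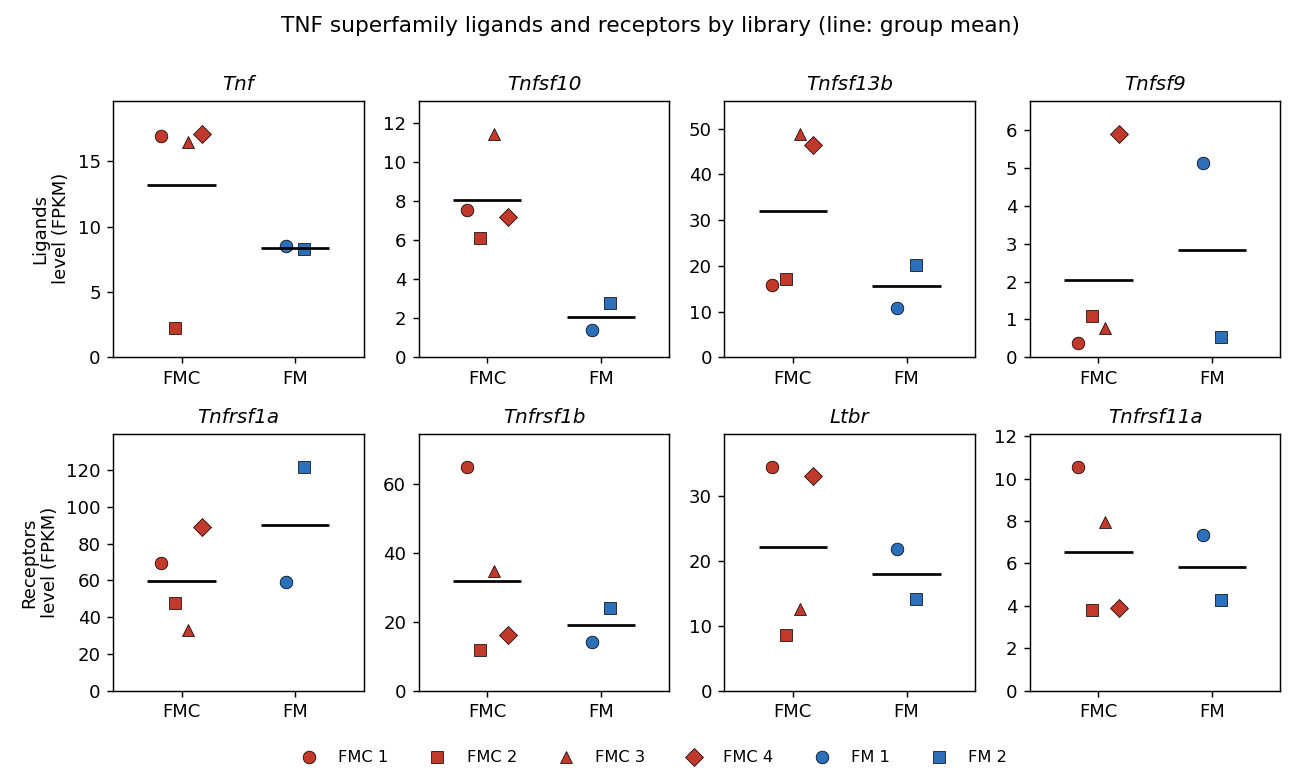
Level in FPKM (vertical axes, linear from 0) of the 4 ligand genes (upper row) and 4 receptor genes (lower row) in each FMC and FM library, with the group mean as a line. Tnfsf10 is the panel without overlap (6.10 to 11.5 FPKM in FMC, 1.37 and 2.80 FPKM in FM), and in the Tnf panel FMC 2 lies at 2.27 FPKM under the other FMC libraries at 16.5 to 17.1 FPKM.

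Among the receptors, Tnfrsf1a (TNFR1, the death-domain receptor of TNF) had the highest mean of the 28 receptor genes of the superfamily. It is ENSMUSG00000030341 on mm9 chromosome 6, from 125299379 to 125312502. Tnfrsf1a was at 69.4, 47.5, 33.2 and 89.2 FPKM in FMC 1 to FMC 4, against 58.8 and 121 FPKM in FM 1 and FM 2. FM 2 was the highest library, and FMC 2 and FMC 3 were below both FM libraries. All female libraries (FMC 1, FMC 4 and FM 2) lay above all male ones (FMC 2, FMC 3 and FM 1). The summed FPKM of all genes split the same way, so this order is not particular to Tnfrsf1a. It was 608633 to 674799 in the female libraries and 420285 to 494766 in the male ones. Microglial markers did so too, summing to 4596 to 6837 FPKM in female and 3313 to 3914 FPKM in male libraries. Whether sex or these totals bear on the Tnfrsf1a level was not tested. The means were 59.8 ± 24.6 FPKM in FMC (SD, n = 4) and 90.1 ± 44.2 FPKM in FM (SD, n = 2), a difference of -0.59 ± 0.55 (SE; 95% interval -1.83 to 0.66; limma, adjusted p = 0.993; exact permutation p = 0.4). The difference was -0.07 without FM 2, -1.10 without FM 1 and -1.07 with the date block (log2). With sex as a covariate it was -0.59 ± 0.39 (SE, limma, adjusted p = 0.958).

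Tnfrsf1b (TNFR2, the receptor without a death domain that binds membrane TNF most strongly) is ENSMUSG00000028599 on mm9 chromosome 4, from 144803365 to 144836773. Tnfrsf1b was at 64.7, 11.9, 34.8 and 16.3 FPKM in FMC 1 to FMC 4, against 14.1 and 23.9 FPKM in FM 1 and FM 2. FMC 1 and FMC 3 lay above both FM libraries, FMC 2 below both and FMC 4 between them. The difference was 0.47 ± 0.71 (SE; 95% interval -1.14 to 2.09; limma, adjusted p = 0.999; exact permutation p = 0.6), and it was 0.04 without FMC 1, 0.11 without FM 1, 0.83 without FMC 2 and 0.83 without FM 2. The ratio of Tnfrsf1a to Tnfrsf1b was 1.07, 3.98, 0.953 and 5.49 in FMC 1 to FMC 4, against 4.18 and 5.08 in FM 1 and FM 2. The ratio was near 1 in FMC 1 and FMC 3 and about 4 or more in the other 4 libraries.

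Ltbr, which encodes the lymphotoxin beta receptor, lies 35475 bases from Tnfrsf1a on mm9 chromosome 6 (ENSMUSG00000030339, from 125256588 to 125263903). Ltbr was at 34.4, 8.60, 12.6 and 33.1 FPKM in FMC 1 to FMC 4, against 21.8 and 14.1 FPKM in FM 1 and FM 2. FMC 1 and FMC 4 (female) lay above both FM libraries and FMC 2 and FMC 3 (male) below both, so the FMC libraries stood on either side of FM. In FM the male library was the higher one. The difference was 0.10 ± 0.68 (SE; 95% interval -1.44 to 1.64; limma, adjusted p = 0.999; exact permutation p = 1). Its sign changed without FMC 1, FMC 4 or FM 2, to -0.18, -0.16 and -0.19, and it was -0.70 with the date block. In libraries with dates 1 day apart Ltbr was lower in both FMC libraries, at -1.25 for FMC 2 minus FM 1 and -0.15 for FMC 3 minus FM 2 (log2). The genotype by sex term of Ltbr was -2.20 ± 0.97 (SE, limma, unadjusted p = 0.0713, adjusted p = 0.999). That unadjusted p was the smallest of the 8 genes for this term. Within FMC the female libraries also had the higher summed FPKM of all genes (674799 and 644985 against 450109 and 494766). In FM, unlike Ltbr, that total was higher in the female library (608633 against 420285). Whether these totals bear on the Ltbr levels was not tested.

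Tnfrsf11a, which encodes RANK, the osteoclast differentiation receptor that myeloid cells also carry, is ENSMUSG00000026321 on mm9 chromosome 1, from 107677299 to 107744558. Tnfrsf11a was at 10.5, 3.82, 7.95 and 3.92 FPKM in FMC 1 to FMC 4, against 7.33 and 4.29 FPKM in FM 1 and FM 2. It varied least of the 8 genes, 2.75-fold between its lowest and highest library, and Tnfsf9 varied most, 15.4-fold. The difference was 0.08 ± 0.72 (SE; 95% interval -1.55 to 1.72; limma, adjusted p = 0.999; exact permutation p = 0.933), and its sign changed without FMC 1 (-0.15), FMC 3 (-0.03) or FM 2 (-0.25), while it was 0.41 without FM 1. Its ligand gene Tnfsf11 (RANKL) was at 6.53 FPKM in FM 2 and at 0.262 FPKM or less in the other 5 libraries, and the decoy receptor gene Tnfrsf11b (osteoprotegerin) was at 0.235 FPKM or less in all 6. Tnfrsf10b, the mouse death receptor for TRAIL, was likewise low, at 0.488 FPKM or less in all 6 libraries. The decoy receptor genes for TRAIL had higher means. Tnfrsf22 averaged 5.03 ± 5.87 FPKM in FMC (SD, n = 4) and 0.574 ± 0.212 FPKM in FM (SD, n = 2; limma, adjusted p = 0.993). It was at 0.0772, 2.34, 4.25 and 13.5 FPKM in FMC 1 to FMC 4, against 0.424 and 0.724 FPKM in FM 1 and FM 2. FMC 1 thus lay below both FM libraries, and FMC 4 weighs most in the FMC mean. Tnfrsf23 averaged 5.58 ± 4.72 FPKM in FMC (SD, n = 4) and 7.59 ± 3.25 FPKM in FM (SD, n = 2).

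Single libraries set much of the spread. FMC 2 was the lowest library in 4 of the 8 genes (Tnf, Tnfrsf1b, Tnfrsf11a and Ltbr), and FMC 1 was the highest in 3, all of them receptors (Tnfrsf1b, Tnfrsf11a and Ltbr). The summed FPKM of all genes was largest in FMC 1 (674799), and within FMC it was smallest in FMC 2 (450109). The estimated depth was lowest in FMC 2. T cell markers summed to 251 FPKM in FMC 1, of which 137 FPKM was Trac alone. Their sum was 28.9 to 69.4 FPKM in FMC 2 to FMC 4 and 19.4 and 36.6 FPKM in FM 1 and FM 2, and Cd3g was listed at 0 in FMC 2. FMC 1 also had the highest sums of NK cell (57.6 FPKM), B cell (111), neutrophil and monocyte (378), fibroblast and mural (102) and oligodendrocyte lineage markers (21.5 FPKM). Microglia, border-associated macrophage, endothelial, astrocyte, neuron and erythroid markers had their highest sums in other libraries. Whether any of these sums bears on the receptor levels of FMC 1, or the total or depth on the low values of FMC 2, was not tested. No gene was called for a genotype effect that differs between the sexes (0 of 18208, 0%; 686 with an unadjusted p under 0.05 in limma), and the adjusted p of the 8 genes was 0.999 for that term.

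**Figure D2:**
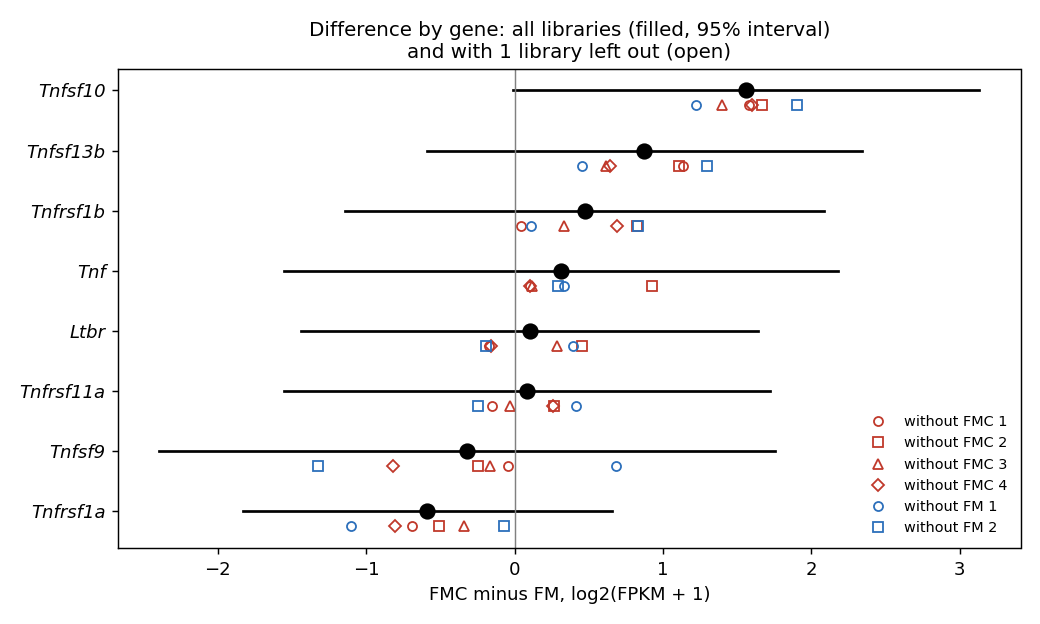
Difference of FMC minus FM on the log2(FPKM + 1) scale for each of the 8 genes (filled circles, with 95% intervals from limma as lines) and the same difference with 1 library left out (open symbols). All 8 intervals hold 0, that of Tnfsf10 by 0.01, and the open symbols of Ltbr, Tnfrsf11a and Tnfsf9 lie on both sides of 0.

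By mean level over the 6 libraries the order was Tnfrsf1a (69.9 FPKM), Tnfrsf1b (27.6), Tnfsf13b (26.6), Ltbr (20.8), Tnf (11.6), Tnfrsf11a (6.31), Tnfsf10 (6.08) and Tnfsf9 (2.30 FPKM). Neighbours in this order were compared within libraries with an exact two-sided sign-flip permutation test on log2(FPKM + 1), adjusted over the 7 pairs. The smallest p that 6 libraries allow is 0.0312, and after adjustment over 7 pairs a single pair cannot go below 0.219, so this test could hardly show a difference and says little about which neighbours differ. The adjusted p was 0.219 to 0.938. Tnfrsf1a was above Tnfrsf1b by 1.43 ± 1.12 (log2, SD, n = 6) and in 5 of 6 libraries (unadjusted exact p = 0.0625), Ltbr above Tnf in 5 of 6 (unadjusted exact p = 0.0625) and Tnfrsf1b above Tnfsf13b in 3 of 6.

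Most other ligands were under the filter. Of the 13 other ligands 7 were under 1 FPKM in all libraries and 3 could be tested. None passed (limma, adjusted p 0.895 to 0.999), with 0 above and 0 below in all FMC libraries and a median difference of -1.33 over the 3. The 1 that was higher was Tnfsf8 (CD30 ligand; 3.39 ± 1.34 FPKM in FMC, SD, n = 4; 2.74 ± 2.26 FPKM in FM, SD, n = 2). Ltb had the smallest p among those lower (log2 difference -1.88 ± 0.80 SE, unadjusted p = 0.0437, limma adjusted p = 0.895), and its FM mean rests on FM 2. Of the 24 other receptors 15 could be tested, 7 higher and 8 lower, with 0 called and a median of -0.10. Tnfrsf25 (DR3, a death-domain receptor of lymphocytes) was at 4.54, 12.4, 0.0565 and 1.61 FPKM in FMC 1 to FMC 4, against 0.303 and 0.128 FPKM in FM 1 and FM 2. Tnfrsf18 (GITR, a costimulatory receptor of T cells) was at 0.468, 1.05, 0.691 and 1.30 FPKM in FMC 1 to FMC 4, against 1.91 and 8.35 FPKM in FM 1 and FM 2. The groups did not overlap for Tnfrsf18, and for 1 receptor that was higher, Tnfrsf21 (DR6, a death-domain receptor of neural and immune cells). That is 1 of 15 below and 1 of 15 above, where 8.22% of all genes tested lay below and 4.34% above. Tnfrsf21 averaged 77.7 ± 19.7 FPKM in FMC (SD, n = 4) and 48.5 ± 10.0 FPKM in FM (SD, n = 2; limma, adjusted p = 0.993).

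**Figure D3:**
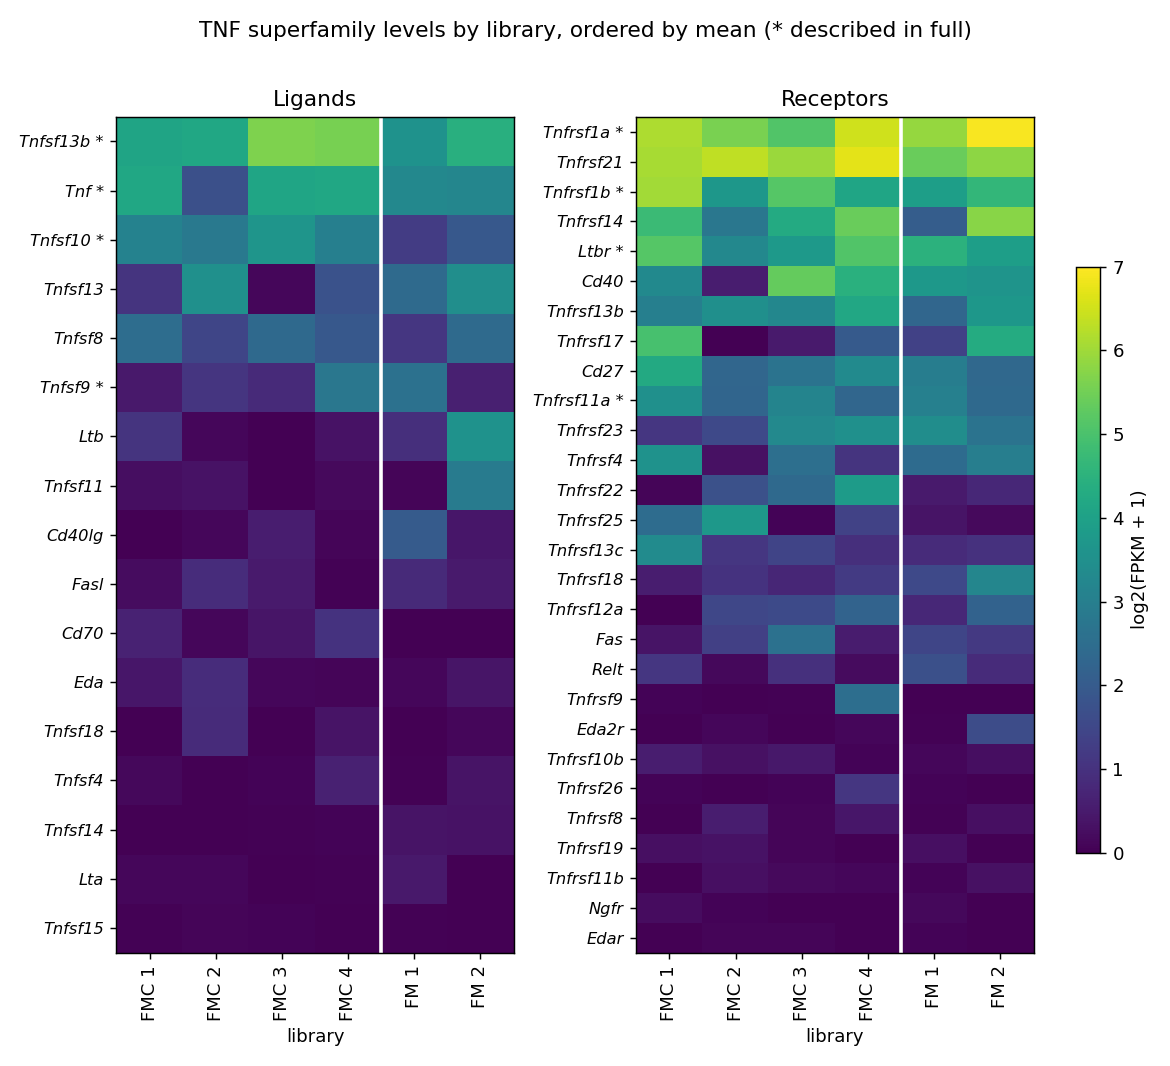
Level of 17 ligand genes and 28 receptor genes of the TNF superfamily as log2(FPKM + 1) (colour) in each library (columns, FMC left of the white line and FM right of it), ordered by mean level. Tnfsf13b leads the ligands at a mean of 26.6 FPKM and Tnfrsf1a the receptors at 69.9 FPKM, and most other ligands are near 0.

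Downstream of the receptors, all 24 adaptors and kinases could be tested. They include the TRAF adaptors, RIPK1 and caspase-8, the linear ubiquitin ligase and the IKK kinases. None passed (13 higher, 11 lower, median 0.10), and 0 of 24 were free of overlap in either direction. Over all genes tested 4.34% lay above and 8.22% below. Tab2, an adaptor of the TAK1 kinase, had the smallest p among those higher (102 ± 26 FPKM in FMC, SD, n = 4; 68.0 ± 39.8 FPKM in FM, SD, n = 2). Sharpin, a subunit of the linear ubiquitin ligase, had the smallest among those lower (17.8 ± 9.9 FPKM in FMC, SD, n = 4; 32.5 ± 24.1 FPKM in FM, SD, n = 2). The 4 genes of TNF production and shedding all had negative differences with none called (median -0.34), where 43.5% of all genes tested had a positive one. For Zfp36 the difference was -0.08 ± 0.60 (SE), and its mean FPKM was higher in FMC (92.7 against 88.5 FPKM). Rhbdf1, an inactive rhomboid that helps mature the TNF sheddase ADAM17, had the smallest p (3.40 ± 2.88 FPKM in FMC, SD, n = 4; 7.66 ± 5.16 FPKM in FM, SD, n = 2).

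Of 15 genes known to be induced by TNF 14 could be tested, 10 higher and 4 lower with a median of 0.35, and 0 were called (limma, adjusted p 0.956 to 1). The whole FMC group was above FM in 3 of the 14 (Cxcl10, Vcam1 and Birc3) and below it in 2 (Nfkbia and Sod2), where 4.34% of all genes tested lay above and 8.22% below. Birc3 cleared FM narrowly, with 19.97 FPKM in its lowest FMC library and 19.86 FPKM in its highest FM library. Cxcl10, a T cell chemokine that interferons also induce, was at 141, 202, 128 and 527 FPKM in FMC 1 to FMC 4, against 96.1 and 66.5 FPKM in FM 1 and FM 2 (log2 difference 1.38 ± 0.62 SE, limma adjusted p = 0.956). Vcam1, an adhesion molecule for leukocytes, was at 16.6, 15.2, 27.2 and 33.5 FPKM in FMC 1 to FMC 4, against 14.4 and 4.48 FPKM in FM 1 and FM 2. Among those lower were Ier3, an immediate early gene (5.80 ± 4.39 FPKM in FMC, SD, n = 4; 11.0 ± 1.8 FPKM in FM, SD, n = 2), and Nfkbia, the inhibitor of NF-kappaB that NF-kappaB itself induces (13.8 ± 4.8 FPKM in FMC, SD, n = 4; 20.4 ± 1.0 FPKM in FM, SD, n = 2).

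**Figure D4:**
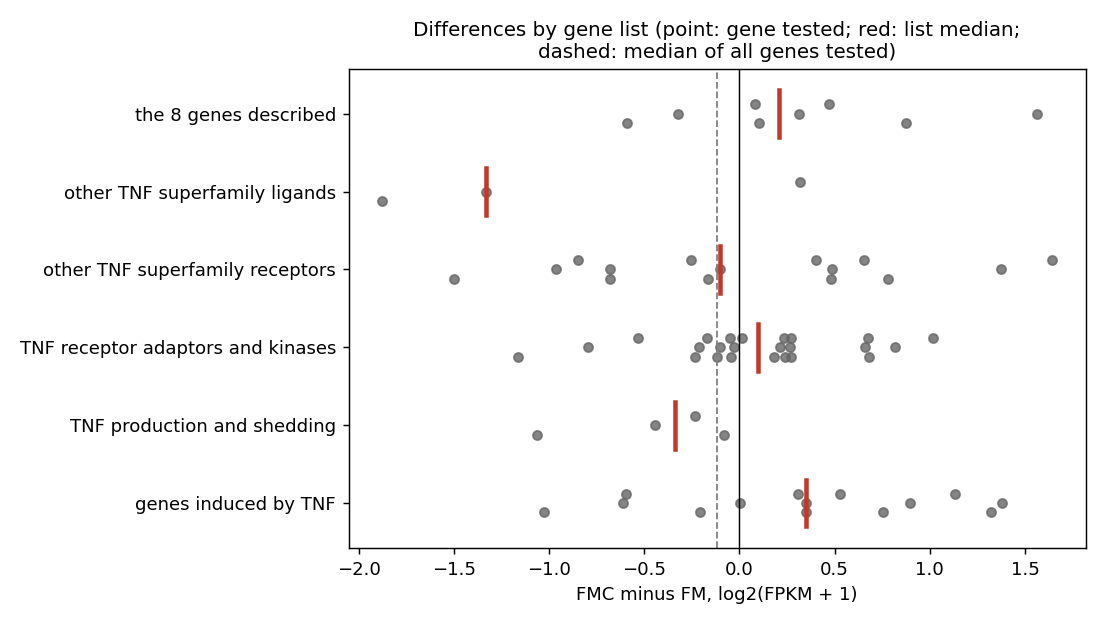
Difference of FMC minus FM on the log2(FPKM + 1) scale for each gene tested (grey points), by gene list (rows), with the list median in red and the median of all genes tested (-0.12) as a dashed line. The 8 genes described have a median of 0.21 and Tnfsf10 as their farthest point at 1.56, and genes induced by TNF have a median of 0.35.

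The genes most like Tnf and Tnfsf10 in pattern were sought among 8039 named genes with a mean of at least 5 FPKM, by Pearson's r of log2(FPKM + 1) over the 6 libraries, as a description with no test. For Tnf they were Rfc1, a subunit of the replication clamp loader (r = 0.992), and Ppp6r1, a regulatory subunit of protein phosphatase 6 (r = 0.985). Rfc1 was at 123, 8.92, 103 and 120 FPKM in FMC 1 to FMC 4 and at 47.0 and 58.3 FPKM in FM 1 and FM 2, and so shares with Tnf the low value in FMC 2. For Tnfsf10 they were Abcc3, an efflux transporter (r = 0.986), and Setd6, a lysine methyltransferase (r = 0.980). Abcc3 was at 37.8, 37.2, 41.8 and 36.1 FPKM in FMC 1 to FMC 4 and at 20.5 and 26.3 FPKM in FM 1 and FM 2. An r of 0.9 or more was reached by 97 of the 8039 genes for Tnf and by 52 for Tnfsf10, and the points share libraries and their depth.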

How the data were processed

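RNA of sorted optic nerve microglia was amplified (Ovation) before paired-end Illumina HiSeq sequencing, per the labels' protocols. Cufflinks 2.0.2, Bowtie2 2.0.0, TopHat2 2.0.4, CASAVA 1.8.2 and the mm9 build are listed without roles, per the submitters' processing notes. The deposited table holds FPKM by the authors per Ensembl gene and library; whether strand was used is not given. FPKM are no counts, so no count test was run, and amplification of small inputs adds spread that FPKM does not show. Rows with a missing value in any library (426) were left out.

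Models were fitted on log2(FPKM + 1) with an intensity trend (limma 3.58.1, R 4.3.3), checked on simulated data. The names of the 6 columns gave their libraries. The members and lists were chosen with earlier results of these data known. Genes named were the members, their own ligands or receptors by role, and of each other list the gene with the smallest p in each direction (2 for genes induced by TNF), plus genes without overlap, named after their values were seen. Alternatives were a pseudocount of 0.1, other filters, scalings and variance models, covariates, blocks and omission of each library. Promoters came from RefSeq on GRCm38.p6, with no coordinates moved between builds.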

Additional observations from a re-analysis of the deposited data

Results flagged for a closer look

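In 19 genes (the 8 described and 11 named from the other lists) the highest and lowest of the 4 FMC libraries were compared with the rest by Dixon's test on FPKM. In 2 of them a value stood apart, where chance gives about 1 in 20 groups. Tnf was at 2.27 FPKM in FMC 2, and the other FMC libraries were at 16.5 to 17.1 FPKM, so the gap was 0.959 of the group's range. Tnfsf9 was at 5.90 FPKM in FMC 4, and the other FMC libraries were at 0.384 to 1.10 FPKM (gap 0.870 of the range).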

How the results depend on the processing

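Under 127 recomputed values of the 8 genes none passed the threshold (limma, adjusted p 0.728 to 1.00), 115 kept their sign and 12 did not. Tnfsf10 stayed positive in its 16 alternatives (1.22 to 1.94), as did Tnfsf13b (0.13 to 1.29) and Tnfrsf1b (0.04 to 0.83), and Tnfrsf1a stayed negative (-1.10 to -0.07). The unadjusted p of Tnfsf10 (limma) was 0.0510 in the fit reported. It was 0.0236 to 0.0472 with a pseudocount of 0.1, no filter, either scaling, no intensity trend or array weights. It was 0.0610 to 0.233 in the other alternatives that kept both FM libraries. With title dates 1 day apart as a block the difference was -0.31 for Tnf, -0.70 for Ltbr and -0.0145 for Tnfrsf11a. With the replicate block (FM 1, FM 2, FMC 1 and FMC 2) it was -0.30 for Tnf and -0.0100 for Ltbr. Replicate numbers are not stated to pair libraries, and the deviations of same-numbered libraries correlated at 0.03 and -0.06. Leaving out 1 library gave 0.10 to 0.92 for Tnf, -1.33 to 0.68 for Tnfsf9, -0.19 to 0.45 for Ltbr and -0.25 to 0.41 for Tnfrsf11a. Median ratio scaling and quantile normalization moved the median of all genes by 0.11 and 0.15. Relative to that median Tnfsf10 was at 1.68 in the fit reported, 1.68 and 1.78, and no gene of the 8 changed sign. The count of 5 genes called, all lower, became 1 (higher) with a pseudocount of 0.1, 0 with no filter, 0 with a mean of at least 5 FPKM, 0 with sex as a covariate, 10 (all lower) without an intensity trend, 3 (2 higher, 1 lower) with the date block and 4 (all higher) with the replicate block, and 0 to 8 without 1 library (0 without FMC 2, FMC 3, FM 1 or FM 2, 8, of which 4 were higher, without FMC 4). No alternative called a gene for genotype by sex, and without either FM library that term could not be fitted. Tnfsf9 could not be tested with a mean of at least 5 FPKM. With 2 FM libraries the lone one left is assumed to vary like FMC. The causes of these changes were not tested.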

Other observations

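Among superfamily receptors named here for their level, after their values were seen, Tnfrsf21 had a mean of 68.0 FPKM over the 6 libraries, second of 28 after Tnfrsf1a. Tnfrsf14 (HVEM, the LIGHT receptor of immune cells) was at 26.3, 5.79, 18.5 and 40.9 FPKM in FMC 1 to FMC 4 and at 3.15 and 52.6 FPKM in FM 1 and FM 2, so that the FM libraries held both its lowest and its highest value. Cd40, a costimulatory receptor of antigen-presenting cells, was at 9.04, 0.468, 39.5 and 20.6 FPKM in FMC 1 to FMC 4 and at 12.2 and 11.2 FPKM in FM 1 and FM 2. As for Tnf, the FM libraries were close together and FMC 2 was the lowest.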
